A study of Mus musculus with 8 samples.

Results

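The Hox clusters of the mouse genome carry genes for microRNAs (miRNAs) among their protein-coding genes, and 8 mature miRNAs of 3 such families were followed here in the kidney: both arms of miR-10a, miR-10b and miR-615, and the 5p arms of miR-196a and miR-196b. They were picked by name from the 1881 mouse miRNAs of an Agilent array, where they are listed as mmu-miR-10a-5p, mmu-miR-10a-3p, mmu-miR-10b-5p, mmu-miR-10b-3p, mmu-miR-196a-5p, mmu-miR-196b-5p, mmu-miR-615-3p and mmu-miR-615-5p (mmu for mouse, left out below). The db/db group held 4 kidney samples from mice of the strain C57BLKS/J Iar -+Leprdb/+Leprdb. These mice have a defect of the leptin receptor gene and become obese and diabetic. The control group held 4 kidney samples from mice labelled dbm in the titles and m/m in the source, of the strain C57BLKS/J Iar -m+/m+. Both groups shared the C57BLKS/J background, and all samples came from males aged 28 weeks. The strain and source labels of the controls name no db allele, while their titles read dbm. The labels do not settle whether the controls carried a db allele, and they do not say whether each sample is a different mouse. A p-value here thus covers the spread of these samples, which may be technical. No treatment is labelled for either group, and the leptin receptor defect is present in the whole animal rather than in a chosen kidney cell type. Total RNA of each sample was labelled with Cy3 and read on 1 array in 1 colour.

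MicroRNAs are short RNAs that guide Argonaute proteins to messenger RNAs, mainly by pairing of the seed, the stretch near the 5′ end of the miRNA. Genes of the miR-10 family lie near the Hox4 genes and those of the miR-196 family near the Hox9 genes, and both families are known for repressing Hox messenger RNAs and for a position-dependent expression along the body axis that they share with their neighbours. The kidney forms in the trunk, where Hox genes of several clusters pattern the intermediate mesoderm and its derivatives.

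By RefSeq annotation (GRCm38.p6), Mir10a lies within Hoxb3, between Hoxb5 and Hoxb4, on chromosome 11. Mir10b lies on chromosome 2, within the annotated spans of Hoxd3 and Hoxd4. Mature miR-196a comes from a pair of loci, Mir196a-1 between Hoxb13 and Hoxb9 on chromosome 11 and Mir196a-2 between Hoxc10 and Hoxc9 on chromosome 15. Mir196b lies between Hoxa9 and Hoxa10 on chromosome 6, and Mir615 within Hoxc5 on chromosome 15. An array cannot divide the miR-196a signal between its 2 source loci.

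The mature sequences below, from RefSeq (GRCm38.p6), are shown because relatives within a family are nearly identical, which bears on how well probes can separate them. Capitals mark the seed, bases 2 to 8, and each base that differs between the a and b relatives, counted from 1 at the 5′ end of the miRNA.
miR-10a-5p: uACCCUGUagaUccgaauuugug
miR-10b-5p: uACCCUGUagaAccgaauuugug
miR-10a-3p: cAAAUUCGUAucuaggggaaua
miR-10b-3p: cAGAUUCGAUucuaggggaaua
miR-196a-5p: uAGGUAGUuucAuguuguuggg
miR-196b-5p: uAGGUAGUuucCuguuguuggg
miR-615-3p: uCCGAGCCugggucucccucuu
miR-615-5p: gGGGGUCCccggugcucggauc

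Both miR-10 5p arms had the same seed and matched at 22 of 23 bases, differing by U12A in miR-10b-5p relative to miR-10a-5p. Both miR-196 5p arms also shared their seed and matched at 21 of 22 bases, differing by A12C in miR-196b-5p relative to miR-196a-5p. The miR-10 3p arms matched at 19 of 22 bases. Their differences, A3G, U9A and A10U in miR-10b-3p relative to miR-10a-3p, include a seed base, so these arms do not share a seed. The arms of miR-615 had seeds of their own.

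The array's probes are DNA complements of the miRNA that begin at its 3′ end, and several probes of different length measure 1 miRNA. The probes for the miR-10 5p arms reach base 3 or 4, and the longest for miR-196a-5p covers all 22 bases. The longest probes for the miR-10 5p arms and the 20-base probes for the miR-196 5p arms are shown as the array design gives them, 5′ to 3′, with the base opposite the differing position in capitals.
miR-10a-5p, 21 bases: cacaaattcggAtctacaggg
miR-10b-5p, 21 bases: cacaaattcggTtctacaggg
miR-196a-5p, 20 bases: cccaacaacaTgaaactacc
miR-196b-5p, 20 bases: cccaacaacaGgaaactacc

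Each probe for these 4 arms had 1 mismatch to its relative, in the middle of the probe. How much of a relative's RNA binds to such a probe was not tested, so values of the a and b relatives may hold signal from each other. The array design places these probes, in mm9 coordinates, at chr11:96178503-96178522 for miR-10a-5p, chr2:74564134-74564153 for miR-10b-5p and chr6:52180098-52180116 for miR-196b-5p. For miR-196a-5p it gives chr11:96126501-96126522 and chr15:102803796-102803817. The spans given for miR-10a-5p, miR-10b-5p and miR-196b-5p are 1 base shorter than the longest probe of each.

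Signals are given as log2 of the scaled processed signal. Each array was scaled to an equal 75th percentile over the 269 miRNAs detected on all 8 arrays, and scaled signals under 2.80 were set to that floor, 1.48 on the log2 scale. A difference of 1 on this scale is a doubling. A miRNA was tested if it was detected on all 4 arrays of a group, which 316 miRNAs were, and was called at an adjusted p under 0.05 (limma with Benjamini-Hochberg adjustment over those 316). The number detected per array was 289 to 358 in db/db and 305 to 352 in control. All 8 arrays lay on 1 slide, with db/db samples in row 2 and controls in row 1, and for every difference below the row on the slide and the genotype cannot be told apart.

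Both miR-10 5p arms were higher in db/db kidneys, 1.20-fold for miR-10b-5p and 1.15-fold for miR-10a-5p, with no overlap between the groups. The other 4 miRNAs tested (miR-10a-3p, miR-196a-5p, miR-196b-5p and miR-615-3p) did not pass the test, and miR-10b-3p and miR-615-5p were detected on no array. Calls were common in these kidneys: 41.8% of all tested miRNAs were called, 24.4% as higher and 17.4% as lower, beside 2 of the 6 tested Hox cluster miRNAs, both higher. Groups without overlap were equally common, at 41.5% of tested miRNAs, and at 24.7% with db/db the higher group, beside 2 of these 6, both with db/db higher. The count for the Hox cluster miRNAs therefore lay close to that for the array as a whole.

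For miR-10b-5p, the relative encoded in the Hoxd cluster, the log2 signal was 10.71, 10.68, 10.62 and 10.69 in db/db replicates 1 to 4, against 10.30, 10.45, 10.36 and 10.51 in control replicates 1 to 4. Every db/db sample lay above every control, and the controls were spread more widely than the db/db samples. On the linear scale the scaled signal was 1570 to 1670 in db/db and 1260 to 1459 in control. The means were 10.67 ± 0.04 in db/db and 10.41 ± 0.09 in control (SD, n = 4 each), a difference of 0.27 ± 0.05 (SE), with a 95% interval of 0.14 to 0.39 and an adjusted p of 0.00516 (limma, Benjamini-Hochberg). It was a modest change among these arrays: 54 of the 316 tested miRNAs rose more, counting all with a higher log2 difference, and 106 had a larger difference in either direction.

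For miR-10a-5p, the relative encoded in the Hoxb cluster, the log2 signal was 10.96, 10.93, 10.90 and 10.99 in db/db replicates 1 to 4, against 10.61, 10.77, 10.73 and 10.85 in control replicates 1 to 4. The groups did not overlap, but control replicate 4 came within the width of the db/db range of the lowest db/db sample. The means were 10.94 ± 0.04 in db/db and 10.74 ± 0.10 in control (SD, n = 4 each). The difference of 0.21 ± 0.06 (SE) had a 95% interval of 0.08 to 0.34 and an adjusted p of 0.0197 (limma, Benjamini-Hochberg). Without db/db replicate 1 or without db/db replicate 4 the difference stayed at 0.20 and 0.19, and limma gave Benjamini-Hochberg adjusted p-values of 0.0505 and 0.0574. Before scaling of the arrays, control replicate 4, at a signal of 1944, lay above the lowest db/db sample, at 1924, so the gap between the groups for miR-10a-5p rests on the scaling.

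**Figure D1:**
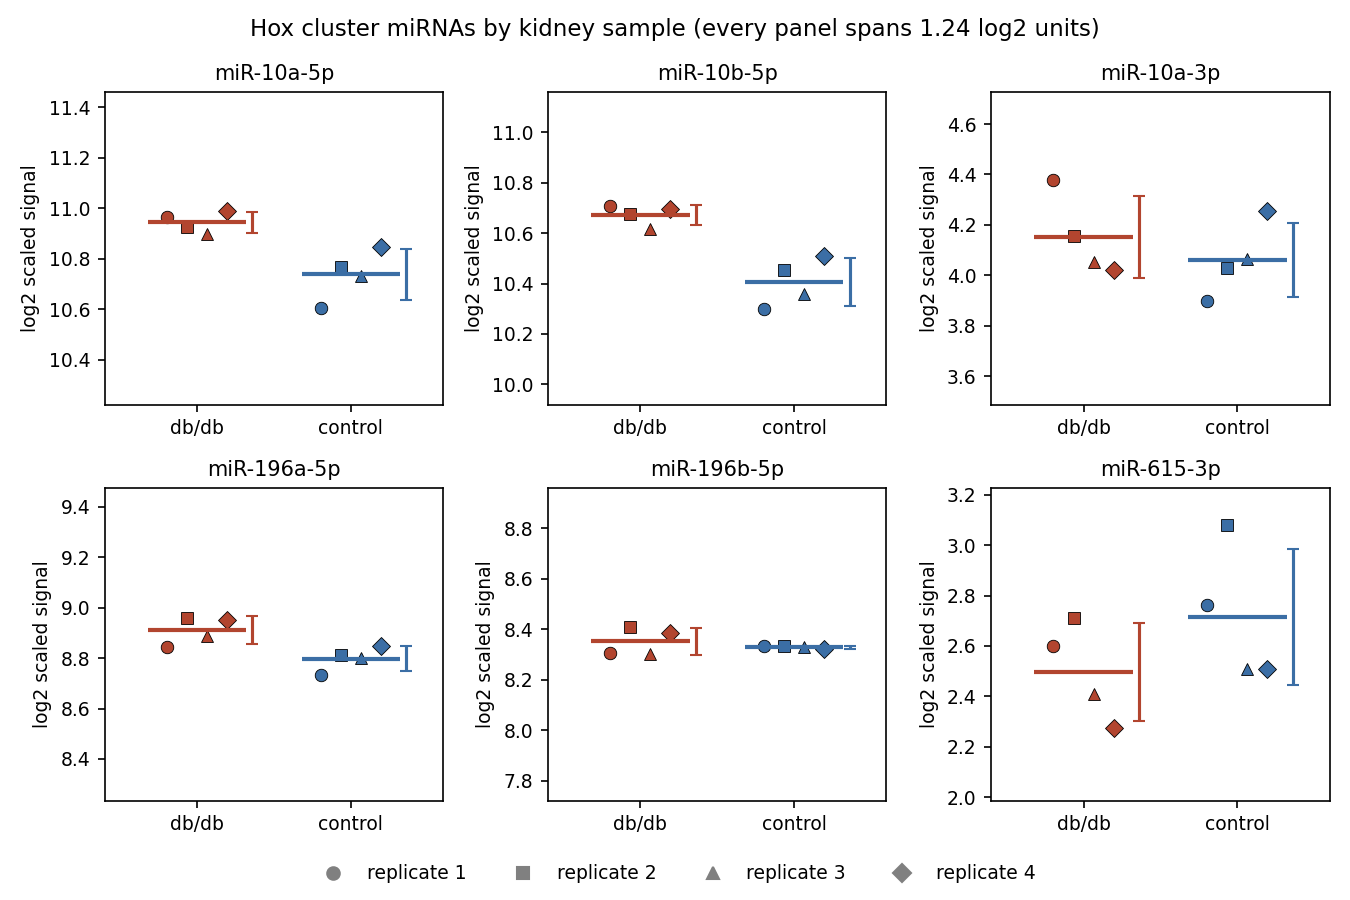
Log2 scaled signal (vertical axes) of the 6 tested Hox cluster miRNAs in each kidney sample, db/db on the left and control on the right of each panel; points are samples, horizontal lines group means and bars 1 SD around them, and all panels span the same number of log2 units. The 4 db/db samples lie above all 4 controls for miR-10a-5p (10.90 to 10.99 against 10.61 to 10.85) and miR-10b-5p (10.62 to 10.71 against 10.30 to 10.51), and the groups overlap in the other 4 panels.

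The signal of both miR-10 5p arms rested on bright spots. All 30 spots of each of these miRNAs were well above background on every array, and the variation among spots of a probe, as a coefficient of variation, was 2.64% to 3.48%. Each has a 20-base and a 21-base probe. For miR-10b-5p the difference was 0.24 ± 0.05 with the 20-base probe and 0.28 ± 0.06 with the 21-base probe, and for miR-10a-5p it was 0.20 ± 0.05 and 0.21 ± 0.06 (log2 difference ± SE). All 4 probes passed the test on their own, with adjusted p-values of 0.00389, 0.00893, 0.0178 and 0.0264 in that order (limma, Benjamini-Hochberg over 658 probes, of which 41.3% were called, 24.2% as higher).

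**Figure D2:**
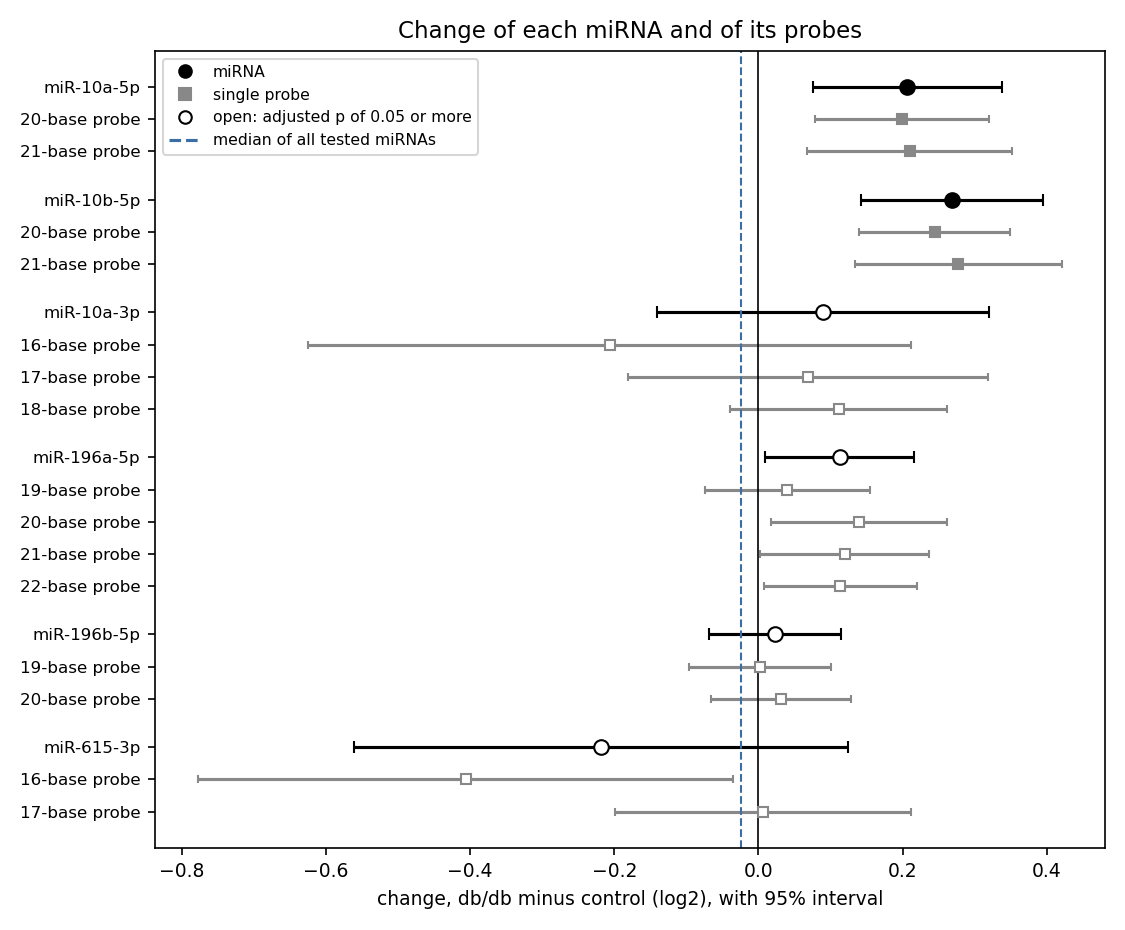
Log2 difference, db/db minus control (horizontal axis), for each tested Hox cluster miRNA (black circles) and for each of its tested probes (grey squares), with 95% intervals; filled symbols passed an adjusted p of 0.05 and the dashed line is the median of all tested miRNAs, at -0.02. The 4 probes of miR-10a-5p and miR-10b-5p lie between 0.20 and 0.28 with intervals above 0, and no probe of another miRNA shown passed the test.

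The 3p arm of miR-10a is cut from the same hairpin as miR-10a-5p, and is usually the less abundant strand in cells. The Mir10a hairpin from RefSeq (GRCm38.p6, chromosome 11) is shown with both mature arms in capitals, the 5p arm first.
Mir10a hairpin: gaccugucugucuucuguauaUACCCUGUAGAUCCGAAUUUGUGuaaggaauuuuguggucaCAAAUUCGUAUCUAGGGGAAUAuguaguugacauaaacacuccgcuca

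The log2 signal of miR-10a-3p was 4.38, 4.16, 4.05 and 4.02 in db/db replicates 1 to 4, against 3.90, 4.03, 4.07 and 4.25 in control replicates 1 to 4. The groups overlapped over most of their range. The difference was 0.09 ± 0.10 (SE), with a 95% interval of -0.14 to 0.32 and an adjusted p of 0.481 (limma, Benjamini-Hochberg). That interval holds the change of miR-10a-5p as well as 0. The difference was 0.015 without db/db replicate 1, 0.035 without control replicate 1 and 0.15 without control replicate 4. The precision was lower for this arm: 55 of 120 spots were well above background in db/db and 56 of 120 in control, and its 3 tested probes differed in sign, at -0.21, 0.07 and 0.11 for the 16-, 17- and 18-base probes. Its 15-base probe was at the floor on all arrays. The other arm of miR-10b, miR-10b-3p, had 0 of 120 spots well above background in each group, so no ratio of arms could be formed for miR-10b.

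Neither miR-196 5p arm passed the test. For miR-196a-5p, the mature product of the Hoxb and Hoxc loci, the log2 signal was 8.84, 8.96, 8.89 and 8.95 in db/db replicates 1 to 4, against 8.73, 8.81, 8.80 and 8.85 in control replicates 1 to 4. Only db/db replicate 1 lay within the control range, just under control replicate 4. The means were 8.91 ± 0.05 in db/db and 8.80 ± 0.05 in control (SD, n = 4 each), and the difference of 0.11 ± 0.04 (SE; 95% interval 0.01 to 0.22) did not pass, with a limma p of 0.0366 before and 0.0751 after Benjamini-Hochberg adjustment. Of its 4 probes, none passed, with differences of 0.04, 0.14, 0.12 and 0.11 for the 19-, 20-, 21- and 22-base probes.

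For miR-196b-5p, encoded in the Hoxa cluster, the log2 signal was 8.31, 8.41, 8.30 and 8.39 in db/db replicates 1 to 4, against 8.33, 8.33, 8.33 and 8.32 in control replicates 1 to 4. The controls were nearly equal, and the db/db samples lay on both sides of them. The difference was 0.02 ± 0.04 (SE), with a 95% interval of -0.07 to 0.11 and an adjusted p of 0.662 (limma, Benjamini-Hochberg), so a change as large as that of miR-10b-5p lay outside the interval. All 30 spots of both miR-196 5p arms were well above background on every array. The 3p arms of the miR-196 genes (miR-196a-1-3p, miR-196a-2-3p and miR-196b-3p) were detected on no array.

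The miR-615 arms gave little signal. For miR-615-3p the log2 signal was 2.60, 2.71, 2.41 and 2.27 in db/db replicates 1 to 4, against 2.76, 3.08, 2.51 and 2.51 in control replicates 1 to 4. The groups overlapped, with the highest value in control replicate 2. The difference was -0.22 ± 0.15 (SE; 95% interval -0.56 to 0.12), with an adjusted p of 0.268 (limma, Benjamini-Hochberg). It was -0.10 without control replicate 2 and -0.14 without db/db replicate 4. It was called detected on all 8 arrays, but only 12 of 120 spots in db/db and 13 of 120 in control were well above background. Its 16-base probe gave -0.41 ± 0.16 and its 17-base probe 0.01 ± 0.09 (log2 difference ± SE), and its 14- and 15-base probes were at the floor on all arrays. For miR-615-5p, 0 of 120 spots were well above background in each group.

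A scaling by 1 factor per array does not alter the log2 difference between 2 miRNAs on the same array. Such differences were compared between the groups for 3 pairs. Since probes differ in brightness, the sign and size of such a difference within 1 group says nothing of which miRNA is more abundant. The log2 difference of miR-10b-5p minus miR-10a-5p was -0.26, -0.25, -0.28 and -0.30 in db/db replicates 1 to 4, against -0.31, -0.31, -0.37 and -0.34 in control replicates 1 to 4. The groups did not overlap. The shift was 0.06 toward miR-10b-5p in db/db (exact permutation test over 70 assignments, 2-sided p = 0.0286, the smallest it can give, and 0.0429 after Benjamini-Hochberg adjustment over 3 pairs).

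The log2 difference of miR-196b-5p minus miR-196a-5p was -0.54, -0.55, -0.58 and -0.57 in db/db replicates 1 to 4, against -0.40, -0.48, -0.47 and -0.53 in control replicates 1 to 4. These groups did not overlap either, although control replicate 4 lay close to db/db replicate 1. The shift was -0.09, toward miR-196a-5p in db/db (exact permutation p = 0.0286, adjusted 0.0429). Either shift passes the adjustment over 3 pairs only because the other also stands at the smallest p. With probes of equal length alone, a comparison chosen after the values were seen, neither shift passed. The miR-10 shift was then 0.05 with the 20-base and 0.07 with the 21-base probes, and the miR-196 shift -0.04 with the 19-base and -0.11 with the 20-base probes (exact permutation p adjusted over 4 comparisons, 0.143, 0.114, 0.143 and 0.114 in that order). Before adjustment the exact permutation p-values were 0.143, 0.0286, 0.143 and 0.0571. A lone comparison at the smallest p of 0.0286 cannot pass this adjustment, so these comparisons cannot decide whether the shifts hold.

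For the arms of miR-10a, the log2 difference of miR-10a-5p minus miR-10a-3p was 6.79 ± 0.16 in db/db and 6.68 ± 0.06 in control (SD, n = 4 each). The db/db samples covered 6.59 to 6.97 and so overlapped the controls, at 6.59 to 6.74. The shift of 0.12 did not pass (exact permutation p = 0.257, adjusted 0.257). It was 0.19 without db/db replicate 1 and 0.058 without db/db replicate 4. With normexp background correction it was 0.27 and with the median over probes 0.20, and both passed (exact permutation, adjusted p = 0.0286 each).

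**Figure D3:**
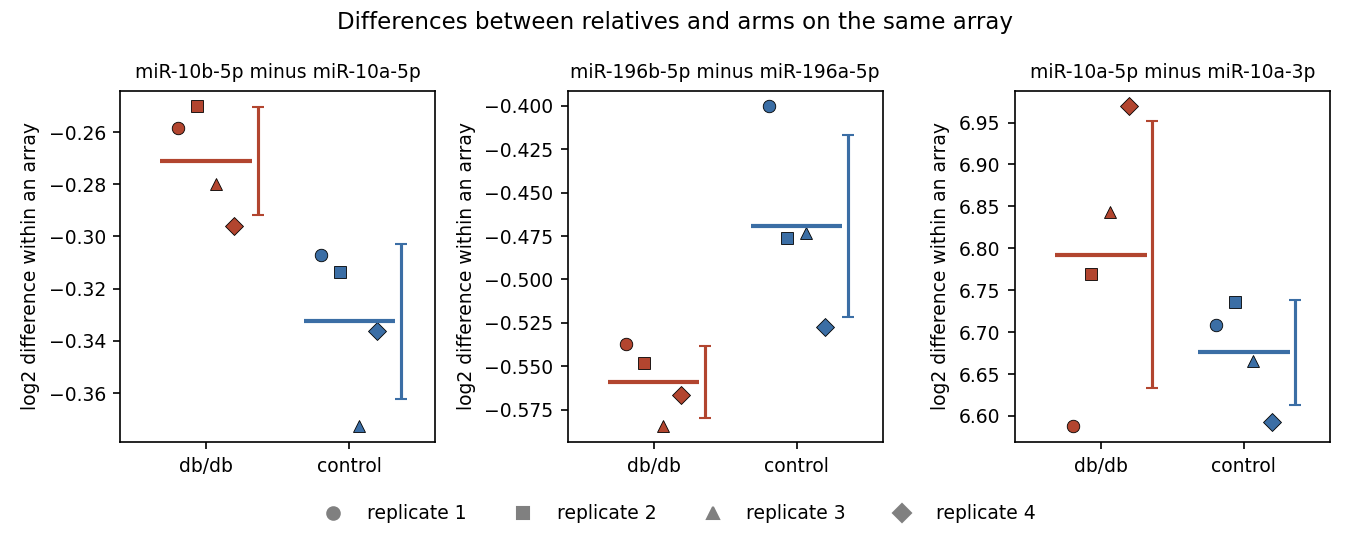
Log2 difference between 2 miRNAs on the same array (vertical axes, with a different range in each panel) for 3 pairs, in db/db and control kidney samples; points are samples, lines group means and bars 1 SD. The db/db samples lie above the controls for miR-10b-5p minus miR-10a-5p (-0.30 to -0.25 against -0.37 to -0.31) and below them for miR-196b-5p minus miR-196a-5p (-0.58 to -0.54 against -0.53 to -0.40), and the groups overlap for the arms of miR-10a.

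The size of the miR-10 changes moved with the array scaling. With no scaling, the median of all tested miRNAs was 0.10 higher in db/db, and miR-10b-5p and miR-10a-5p were higher by 0.39 and 0.33. With scaling to spike-in probes these values were 0.14, 0.43 and 0.37. Set against the median of all tested miRNAs, miR-10b-5p was 0.29 and miR-10a-5p 0.23 higher in db/db, and a scaling by 1 factor per array cannot change these values since it shifts all miRNAs alike. With quantile normalization, which can, they were 0.25 and 0.19. miR-10b-5p passed the test in 22 of 23 alternative settings and miR-10a-5p in 16 of 23. Of these settings, 8 left out 1 sample each, and in the other 15 miR-10b-5p passed in 14 and miR-10a-5p in 10. Several of the 15, such as the replicate block, leave both differences unchanged, so the counts are not of independent checks.

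**Figure D4:**
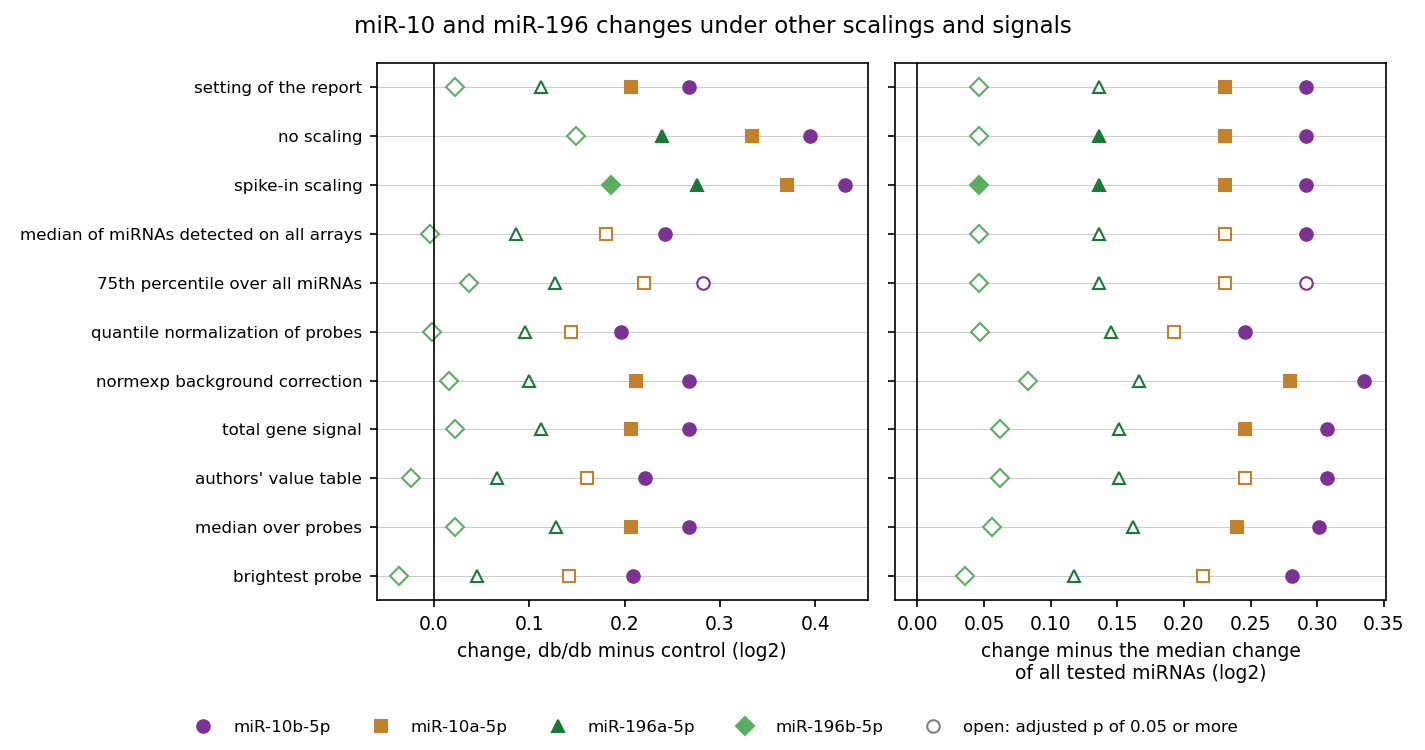
Log2 difference, db/db minus control, of the 4 Hox cluster miRNAs with every spot well above background, under other scalings and signals (rows), as fitted (left panel) and after subtraction of the median difference of all tested miRNAs (right panel); filled symbols passed an adjusted p of 0.05. The order miR-10b-5p, miR-10a-5p, miR-196a-5p, miR-196b-5p is the same in every row, and miR-196b-5p lies on both sides of 0 in the left panel.

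The miR-99 and miR-100 miRNAs descend from the same ancestral family as miR-10, lie outside the Hox clusters, and carry a seed shifted by 1 missing base. They are shown from RefSeq (GRCm38.p6) with the seed in capitals, because their 3′ parts, which the probes cover, resemble those of miR-10.
miR-100-5p: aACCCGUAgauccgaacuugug
miR-99a-5p: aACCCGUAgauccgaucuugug
miR-99b-5p: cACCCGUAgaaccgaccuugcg
The longest run shared by miR-100-5p and miR-10a-5p was 11 bases, guagauccgaa. miR-99a-5p shared 10 bases with miR-10a-5p, and miR-99b-5p shared 10 with miR-10b-5p. These are unbroken runs, and the sequences also match in part on both sides of them. How much miR-99 or miR-100 RNA binds to the miR-10 probes was not tested, so miR-10 values may hold some of their signal.

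Of the 6 arms of these relatives on the array, 3 were tested, 0 were higher, 1 was lower and 2 did not pass, with a median difference of -0.05, beside a median of -0.02 over all tested miRNAs. The log2 signal of miR-100-5p was 6.67, 6.67, 6.54 and 6.68 in db/db replicates 1 to 4, against 6.89, 6.90, 6.72 and 6.93 in control replicates 1 to 4. Every db/db sample was below every control, the opposite order to that of miR-10a-5p and miR-10b-5p. The difference was -0.22 ± 0.06 (SE), with an adjusted p of 0.0189 (limma, Benjamini-Hochberg), and over the alternatives other than left-out samples it lay between -0.26 and -0.05; it passed in 19 of 23 fits. It did not pass on unscaled arrays (-0.09), under spike-in scaling (-0.05), with the 75th percentile over all miRNAs (-0.20) or without control replicate 4 (-0.19, limma adjusted p 0.0527). miR-99a-5p differed by -0.05 ± 0.06 (adjusted p 0.509) and miR-99b-5p by 0.02 ± 0.06 (adjusted p 0.821) in the same limma fit with Benjamini-Hochberg adjustment.

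Likeness of pattern across the 8 arrays was measured as the root mean square of the difference between 2 miRNAs' log2 signals, each centred on its own mean. It is a description that mostly follows the difference between the groups. miR-10b-5p lay at 0.0353 from miR-30e-3p, 0.0407 from miR-151-5p and 0.0453 from miR-652-3p, where the median over all tested miRNAs was 0.221. miR-10a-5p was nearest to miR-10b-5p, at 0.0378, and outside the Hox cluster miRNAs to miR-362-3p at 0.0428, miR-30c-5p at 0.0439 and miR-151-5p at 0.0496. miR-196a-5p was nearest to miR-130a-3p, at 0.0172, and lay at 0.0567 from miR-196b-5p, whose nearest was miR-378d at 0.0249. No tested miRNA came closer than 0.0909 to miR-615-3p or 0.110 to miR-10a-3p.

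In whole kidney, fewer cells of a type and less RNA per cell cannot be told apart. Beside the higher miR-10 5p arms, 6 of 11 miRNAs known for tubule epithelium were higher in db/db, 0 lower, with 5 not past the test and a median difference of 0.17, where 24.4% of all tested miRNAs were higher. That median was 0.29 on unscaled arrays and 0.33 under spike-in scaling, and 0.081 with quantile normalization and 0.098 with the brightest probe. Their summed log2 signal was 14.59 to 14.64 in db/db and 14.43 to 14.51 in control. Leukocyte markers moved the other way: 6 of 7 were lower and 0 higher, where 17.4% of all tested miRNAs were lower, with a median difference of -1.16 (-0.46 with normexp background correction) and a summed log2 signal of 8.22 to 8.68 in db/db and 9.37 to 9.72 in control. Neither of the 2 endothelial markers passed, at a summed log2 signal of 11.83 to 11.89 in db/db and 11.93 to 12.03 in control, and neither of the 2 smooth muscle and pericyte markers passed. Neither of the 2 erythroid markers passed, with a median difference of 0.40 and summed log2 signals of 9.33 to 11.80 in db/db and 9.46 to 11.58 in control. Of 3 striated muscle markers, 2 were undetected in both groups, and miR-1a-3p was higher in db/db by 0.37 ± 0.12 (SE; limma, Benjamini-Hochberg adjusted p 0.0448), with overlapping groups. The liver miRNA miR-122-5p had a log2 signal of 5.65 to 7.06 in db/db kidneys, all 4 of them detected, and stood at the floor in every control. The part of these shifts in the miR-10 differences was not tested.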

How the data were processed

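The authors deposited intensity values per spot from Agilent Feature Extraction 12.0.3.1, as the headers and the submitters' processing notes state. Spatial detrending was on and background correction off, per the file headers. The authors' deposited value table holds a linear ratio per miRNA and array, with an array factor that no source used here explains. It served as an alternative.

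For each probe, processed signals of non-outlier spots were averaged, then averaged across a miRNA's probes, scaled, floored at 2.80 and log2 transformed. limma 3.58.1 (lmFit, eBayes, 2-sided, Benjamini-Hochberg) in R 4.3.3 was fitted over all 316 tested miRNAs without a block. Probes were tested where above the floor on all 4 arrays of a group. Replicate number, which is also the slide column in both groups, was not used as a pairing in that fit. Same-numbered samples' deviations correlated at -0.43, 0.41, -0.05 and -0.07, and only db/db replicate 2 correlated best with the control of its number. With replicate number as a block, 4 Hox cluster miRNAs passed, beside 2 without it. The number of arrays limits the precision. The steps were tested on simulated data. The members and lists were chosen with earlier results of these data known; all 8 members were named, with the 3 nearest patterns of each tested one as the rule for others. Nearest patterns of miR-196 beyond the first, and of miR-10a-3p and miR-615-3p, are summarised.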

Additional observations from a re-analysis of the deposited data

How the results depend on the processing

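Of 23 alternative fits, the miR-10b-5p call was lost in 1, scaling to the 75th percentile over all 1881 miRNAs (0.28, limma adjusted p 0.787), of which 390 were detected on any array; it called 34 miRNAs, 23 as higher and 0 in the Hox clusters. miR-10a-5p then had 0.22 (0.908), and was also lost with scaling to the median of detected miRNAs (0.18), quantile normalization (0.14), the authors' table (0.16) and the brightest probe (0.14), leaving 1 call each. miR-196a-5p passed with no scaling (0.24) and with trend and robust fitting (0.11), giving 3 calls, and with spike-in scaling (0.28) and the replicate block (0.11), giving 4 calls; spike-in scaling called 132 miRNAs as higher. miR-196b-5p passed with spike-in scaling (0.19), and was -0.0035, -0.0020, -0.024 and -0.036 with the median, quantile, authors' table and brightest probe settings. miR-615-3p passed with the replicate block (-0.22) and was 0.0059 with total gene signal; miR-10a-3p was -0.055 with normexp. Without 1 replicate, the differences were 0.16 to 0.24 for miR-10a-5p and 0.23 to 0.30 for miR-10b-5p, with 1 to 2 calls among the Hox cluster miRNAs.

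The within-array shifts were 0.061 and -0.090 with the replicate block, at p = 0.125 each, the smallest an exact sign-flip test of 4 pairs allows. With equal-length probes they were 0.045, 0.067, -0.037 and -0.11. The miR-10a arms' shift was 0.27 with normexp and 0.20 with the median over probes, both at an exact permutation p of 0.0286. miR-99a-5p, like the median of the miR-99 and miR-100 relatives, was 0.080 unscaled and 0.12 under spike-in scaling. miR-99b-5p was -0.0087 (median), -0.043 (quantile), -0.014 (normexp), -0.029 (authors' table), -0.046 (brightest probe) and -0.011 to 0.056 without 1 replicate. The cause of these moves was not tested. Dim spots limit miR-10a-3p and miR-615-3p.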
